A study of Mus musculus with 12 samples.

Results

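The genes described here are 8 transcripts that mark mast cells: Cpa3, Mcpt4, Cma1, Tpsb2, Kit, Fcer1a, Ms4a2 and Hdc. They were chosen by symbol from the 24422 features counted in each library, and all 8 were present. RNA came from the stromal vascular fraction of fat from mice, which holds the stromal, vascular and immune cells of the fat without its mature adipocytes. The 12 libraries formed 4 groups of 3, named here by diet and by the allele at p21 (Cdkn1a). SD mCherry mice carried p21+/mcherry and ate a standard diet (replicates 1, 2 and 3). HFD mCherry mice had the same genotype and ate a high fat diet (replicates 15, 17 and 20). HFD Tert mice (p21+/mcherry-Tert, replicates 25, 26 and 27) and HFD TertCi mice (p21+/mcherry-TertCi, replicates 30, 31 and 33) ate the high fat diet and expressed mouse Tert or TertCi, a catalytically inactive Tert, from the p21 promoter. Every group thus had 1 altered p21 allele, and the transgenes depend on where this promoter is active. The design text gives the high fat diet control as p21+/- and the sample labels give p21+/mcherry, and the labels were followed. The study asked how Tert and TertCi expression changed transcription in this fraction. Strain, sex, age, fat depot and the number of animals behind a library were not given in the sources used here, so the p-values measure the spread between these samples.

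Mast cells are long-lived tissue immune cells whose granules hold histamine, heparin and large stores of serine proteases. Signalling by the Kit receptor keeps them alive, and antigen bound to IgE on the high-affinity IgE receptor triggers release of the granules. In fat they sit mainly along vessels and in fibrous tissue, and they have been studied as a source of mediators in obesity. Of the 8 genes, Mcpt4 and Cma1 encode chymases, Tpsb2 encodes a tryptase, and Cpa3 encodes carboxypeptidase A3, which shares the granules with them. Kit encodes the receptor for stem cell factor. Fcer1a and Ms4a2 encode the alpha and beta chains of the high-affinity IgE receptor. Hdc encodes histidine decarboxylase, which makes histamine.

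The genes lie on 7 chromosomes of the mm10 (GRCm38) genome and are all protein-coding, and Mcpt4 (chr14:56059744-56062310) and Cma1 (chr14:55941451-55944675) both lie on the minus strand in the cluster of mast cell protease genes. No exon of the 8 genes overlapped an exon of another gene in GENCODE M21. Of the 50-base stretches of their exons, 5.48% of those of Mcpt4 also occurred in Cma2 or Mcpt9, 5.38% of those of Cma1 in Gm48934 and 2.10% of those of Ms4a2 in Ms4a4b, so a small part of their reads could be assigned to a relative. Cma2 had 0 counts in 9 libraries and Mcpt9 in all 12.

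A RefSeq window of the 250 bases before the start site (GRCm38.p6) was found by symbol for 7 of the 8 genes, all but Tpsb2. GATA2 is a known regulator of mast cell genes, so the windows were searched on both strands for GATAA, the core letters that GATA factors bind, which reads TTATC on the other strand. The letters were present in 5 of the 7 genes and absent from the windows of Kit and Hdc. Over all 32851 windows of the same length, 22.6% held GATAA. The STAT core TTCNNNGAA, searched on both strands in the same way, was in none of the 7 and in 7.02% of all windows. The 5 windows with a match are shown because they belong to 5 of the 6 genes that were high together in the same libraries below. All run 5′ to 3′ on the minus strand, with the matched letters in capitals, and a match is a description of these letters and not a tested binding site.
Mcpt4 (chr14:56062311-56062560): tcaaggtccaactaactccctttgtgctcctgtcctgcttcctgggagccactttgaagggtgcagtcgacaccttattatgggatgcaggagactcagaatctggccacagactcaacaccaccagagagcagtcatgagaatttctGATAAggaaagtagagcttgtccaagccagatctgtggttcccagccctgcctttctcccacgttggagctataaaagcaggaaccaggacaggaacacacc
Cma1 (chr14:55944676-55944925): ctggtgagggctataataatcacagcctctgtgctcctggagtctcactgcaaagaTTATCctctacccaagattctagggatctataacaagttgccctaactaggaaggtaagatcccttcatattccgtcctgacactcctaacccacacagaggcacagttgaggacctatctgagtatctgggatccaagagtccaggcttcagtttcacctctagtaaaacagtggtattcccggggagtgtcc
Cpa3 (chr3:20242182-20242431): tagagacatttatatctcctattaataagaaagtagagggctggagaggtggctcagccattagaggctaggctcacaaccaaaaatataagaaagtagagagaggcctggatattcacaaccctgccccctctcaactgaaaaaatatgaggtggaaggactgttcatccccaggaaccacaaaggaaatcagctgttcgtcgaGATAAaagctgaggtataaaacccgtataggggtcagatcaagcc
Fcer1a (chr1:173227230-173227479): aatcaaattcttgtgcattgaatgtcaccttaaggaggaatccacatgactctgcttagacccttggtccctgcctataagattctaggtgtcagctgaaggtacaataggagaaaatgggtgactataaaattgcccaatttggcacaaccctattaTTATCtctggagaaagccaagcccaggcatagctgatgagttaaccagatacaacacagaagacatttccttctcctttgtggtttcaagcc
Ms4a2 (chr19:11623720-11623969): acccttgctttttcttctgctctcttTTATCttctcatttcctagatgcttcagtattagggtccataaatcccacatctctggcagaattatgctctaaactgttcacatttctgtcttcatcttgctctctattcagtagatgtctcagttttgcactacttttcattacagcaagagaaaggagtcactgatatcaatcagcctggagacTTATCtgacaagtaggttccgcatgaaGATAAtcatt
The Ms4a2 window held 3 matches and each of the other windows 1. The match lay at position -45 from the start site in Cpa3 and at -102 in Mcpt4.

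Total counts ran from 16430330 to 19486965 per library, and 16713 genes passed the filter on low counts. At this depth 3 counts, the limit that a count of 0 allows, corresponded to 0.145 to 0.193 CPM, the count scaled to the size of its library. Tert was at 6.99 to 16.6 CPM in the 6 libraries labelled Tert or TertCi and at 0.463 to 3.97 CPM in the other 6. The libraries differed widely within groups in transcripts of epididymis and epithelium, whose summed level over 11 genes ran from 91.9 to 57039 CPM. HFD mCherry replicate 15 stood highest in its group for these transcripts, at 17623 CPM against 2079 in replicate 17 and 279 in replicate 20, and counts of calls that rest on this group are given with and without it.

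The 4 granule proteases shared 1 pattern: HFD mCherry replicates 17 and 20 were far above every other library, and replicate 15 was not. Levels below are CPM scaled by the trimmed mean of M values (TMM), given per library in the order of the replicate numbers. Mcpt4 was at 14.7, 16.3 and 3.65 CPM in SD mCherry, 12.1, 66.0 and 47.6 in HFD mCherry, 11.9, 13.4 and 5.11 with Tert, and 10.9, 4.70 and 14.3 with TertCi. The lower of the 2 high libraries was 2.92-fold above the highest library of the other 3 groups, and replicate 15 lay inside their range.

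**Figure D1:**
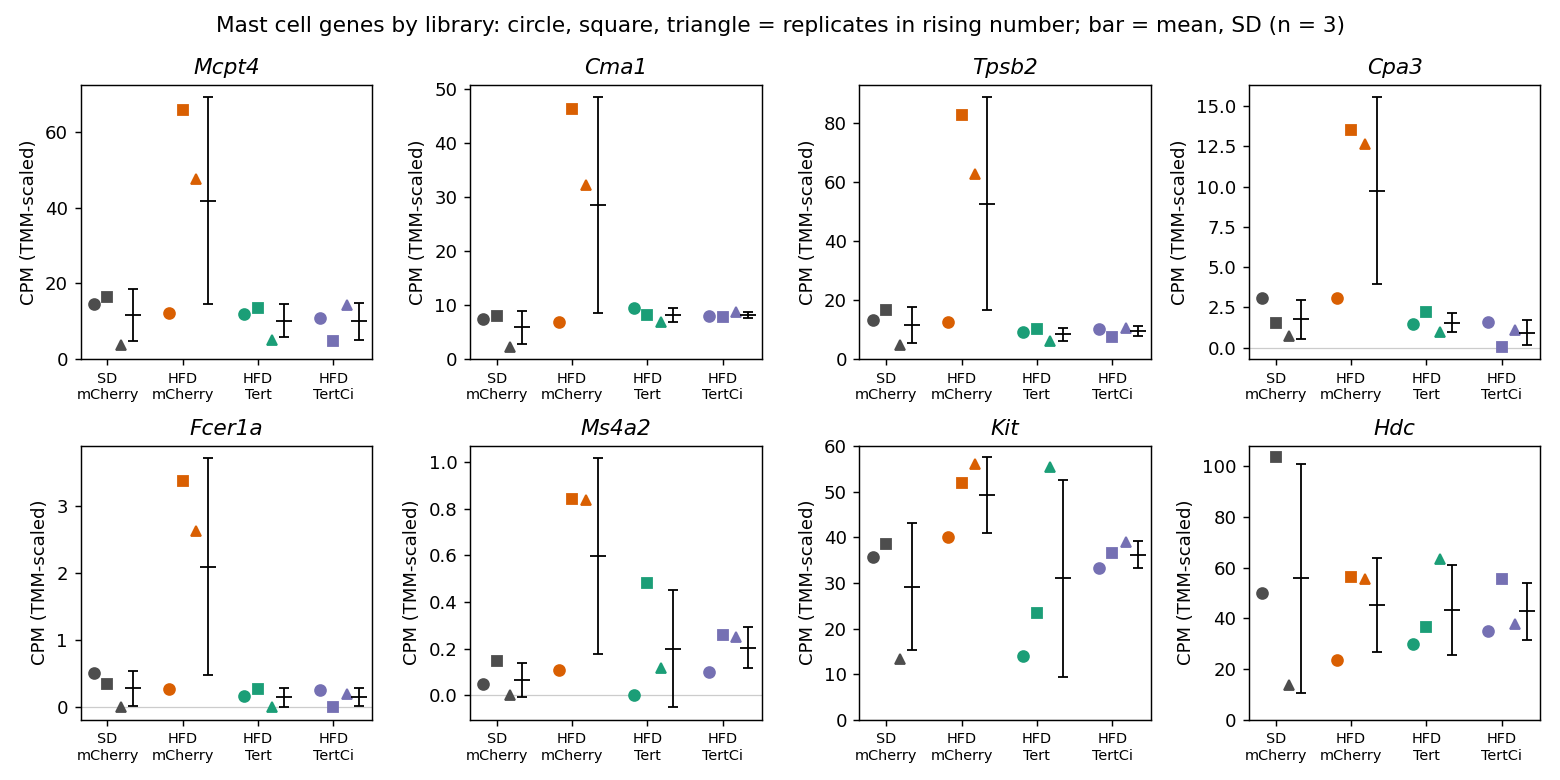
Level (TMM-scaled CPM) of each of the 8 mast cell genes in the 12 libraries, with the mean and SD of each group of 3 beside the points; each gene has its own axis. HFD mCherry replicates 17 (square) and 20 (triangle) stand above all other libraries for 6 genes, and not for Kit and Hdc.

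Cma1, the chymase known best from connective tissue mast cells, was at 7.28, 7.90 and 2.26 CPM in SD mCherry, 6.79, 46.3 and 32.2 in HFD mCherry, 9.34, 8.06 and 6.76 with Tert, and 7.86, 7.66 and 8.72 with TertCi. Both knock-in groups were narrow, with means of 8.05 ± 1.29 and 8.08 ± 0.564 CPM (SD, n = 3). The tryptase Tpsb2 was at 13.2, 16.6 and 4.69 CPM in SD mCherry, 12.6, 82.8 and 62.8 in HFD mCherry, 9.28, 10.04 and 5.99 with Tert, and 10.3, 7.40 and 10.6 with TertCi. All 6 knock-in libraries lay below the lowest HFD mCherry library for Tpsb2, by a small margin against replicate 15. Cpa3 was the least abundant of the 4, at 3.05, 1.50 and 0.695 CPM in SD mCherry, 3.09, 13.5 and 12.7 in HFD mCherry, 1.46, 2.19 and 0.999 with Tert, and 1.58, 0.0644 and 1.10 with TertCi. The level of 0.0644 CPM in HFD TertCi replicate 31 was a single count. HFD mCherry lay above all 9 other libraries for Cpa3, although replicate 15 exceeded SD mCherry replicate 1 only by 3.09 against 3.05 CPM.

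The 2 IgE receptor chains were scarce and had the same 2 libraries highest. Fcer1a reads numbered 10, 7 and 0 in SD mCherry, 5, 56 and 44 in HFD mCherry, 3, 5 and 0 with Tert, and 5, 0 and 4 with TertCi. Those of Ms4a2 numbered 1, 3 and 0 in SD mCherry, 2, 14 and 14 in HFD mCherry, 0, 9 and 2 with Tert, and 2, 4 and 5 with TertCi. Ms4a2 did not pass the filter on low counts, and Fcer1a passed it through the 3 libraries with 10 or more counts, 2 of them HFD mCherry, so its difference between groups was partly set by the filter. Outside HFD mCherry replicates 17 and 20 neither chain exceeded 10 counts in any library.

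Kit and Hdc did not follow the other genes. Kit, which is also expressed by melanocytes and by several progenitor and epithelial cells, was at 35.7, 38.6 and 13.3 CPM in SD mCherry, 40.0, 52.0 and 56.1 in HFD mCherry, 14.1, 23.5 and 55.4 with Tert, and 33.2, 36.6 and 38.9 with TertCi. HFD Tert replicate 27 was close to the highest HFD mCherry library for Kit, and it was among the lowest 3 of 12 for Mcpt4 and Tpsb2. Hdc, which other myeloid cells also express, was at 50.1, 103 and 13.8 CPM in SD mCherry, 23.8, 56.4 and 55.5 in HFD mCherry, 29.9, 36.6 and 63.3 with Tert, and 35.0, 55.6 and 37.8 with TertCi. Its highest and its lowest library were both SD mCherry.

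HFD mCherry replicates 17 and 20 were the 2 highest of the 12 libraries for 6 of the 8 genes. Their mean was 4.23-fold above replicate 15 for Cpa3, 4.69-fold for Mcpt4, 5.78-fold for Cma1, 5.78-fold for Tpsb2, 10.9-fold for Fcer1a and 7.59-fold for Ms4a2, the last 2 from 5 and 2 counts in replicate 15. For Kit it was 1.35-fold and for Hdc 2.36-fold above replicate 15. In bulk RNA, fewer cells of a type and less of its RNA per cell cannot be told apart.

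Tpsb2 kept its proportion to Mcpt4 within libraries more closely than Kit or Hdc did. Per kilobase of exon, Mcpt4 had the highest mean level of the 8 genes in every group, at 10.4 CPM per kb in SD mCherry, 37.8 in HFD mCherry, 9.15 with Tert and 8.98 with TertCi. Relative to Mcpt4 in the same library and per kilobase, Tpsb2 ranged from 0.515 to 1.10 with a median of 0.716, a 2.13-fold range. Cma1 ranged from 0.493 to 1.66 (3.36-fold) and Cpa3 from 0.0100 to 0.194 (19.4-fold), with the lowest Cpa3 ratio resting on the single count in HFD TertCi replicate 31. Without that library, an alternative chosen after seeing the data, Cpa3 ranged from 0.0564 to 0.194 (3.45-fold), close to Cma1. The ratio of Kit to Mcpt4 ranged 13.8-fold and that of Hdc 14.5-fold. Both were lowest in HFD mCherry replicate 17.

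**Figure D2:**
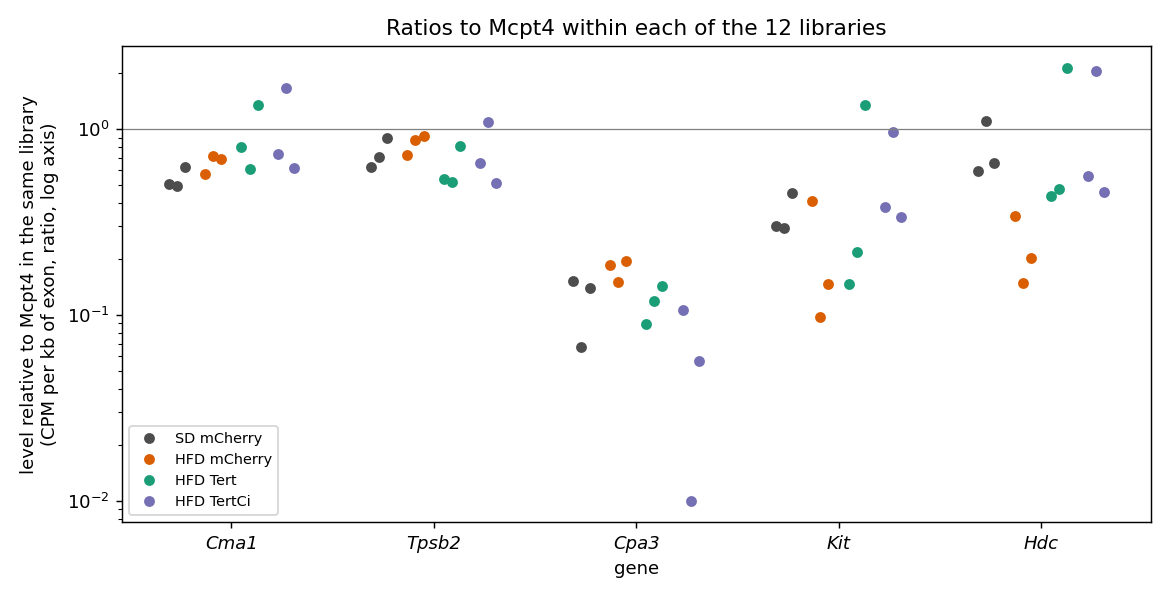
Level of 5 genes relative to Mcpt4 in the same library, both per kilobase of exon, on a log axis; each point is 1 library, coloured by group. Tpsb2 stays between 0.515 and 1.10, whereas Kit and Hdc spread over more than 10-fold and are low in the 2 HFD mCherry libraries with much Mcpt4.

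The order of the group means was the same at its top for 7 of the 8 genes, with HFD mCherry highest, and Hdc was the exception. For Mcpt4 the means were 41.9 ± 27.4 CPM in HFD mCherry, 11.5 ± 6.88 in SD mCherry, 10.1 ± 4.42 with Tert and 9.95 ± 4.86 with TertCi (SD, n = 3 each). The last 3 were neighbours that differed by less than their SDs. For Tpsb2 the order was also HFD mCherry (52.7 ± 36.2), SD mCherry (11.5 ± 6.13), HFD TertCi (9.41 ± 1.75) and HFD Tert (8.44 ± 2.15), and again the last 3 lay within their spread. Hdc was highest in SD mCherry at 55.8 ± 45.1 CPM, and its 3 high fat diet means lay between 42.8 and 45.2 CPM.

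High fat diet was compared with standard diet in mCherry mice. The 4 proteases were on average higher on the high fat diet, with the excess carried by 2 of the 3 libraries, and none passed the threshold of an adjusted p-value under 0.05. The log2 fold change was 2.29 for Cma1 (standard error, SE, 0.627, edgeR quasi-likelihood adjusted p = 0.0864), 2.20 for Tpsb2 (SE 0.627, adjusted p = 0.0908), 2.47 for Cpa3 (SE 0.914, adjusted p = 0.150) and 1.86 for Mcpt4 (SE 0.715, adjusted p = 0.162). Fcer1a differed by 2.84 (SE 1.37, adjusted p = 0.229) and Kit by 0.76 (SE 0.484, adjusted p = 0.346). Hdc differed by -0.30 (SE 0.600, adjusted p = 0.770), with a 95% interval from -1.63 to 1.02. Ms4a2, which did not pass the filter on low counts with all 12 libraries, differed without that filter by 3.02 (SE 1.40, adjusted p = 0.258).

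By edgeR 0 of the 7 genes tested passed in the diet comparison, where 0.0479% of all genes did (8 of 16713). At an unadjusted p under 0.05, 4 of the 7 (the proteases) were higher on the high fat diet, against 14.1% of all genes. Cpa3 and Kit were the 2 of 8 genes whose 3 HFD mCherry libraries all lay above the 3 SD mCherry libraries, a pattern found in 13.9% of all genes. The median log2 fold change of the 7 genes was 2.20 and that of all genes -0.08. The calls depended on the test and on replicate 15. DESeq2 called 3 of the 7, Cma1 (adjusted p = 0.00521), Tpsb2 (0.00733) and Cpa3 (0.0373), against 12.4% of all genes, and limma-voom called 0.

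Without HFD mCherry replicate 15, edgeR called Cma1 (log2 fold change 2.75, adjusted p = 0.0111), Tpsb2 (2.66, adjusted p = 0.0118) and Mcpt4 (2.30, adjusted p = 0.0474) as higher on the high fat diet, against 12.2% of all genes. In the same fit Cpa3 was at 2.90 with an adjusted p of 0.0620. Ms4a2, tested there as well, was at 3.51 (adjusted p = 0.107). Without HFD mCherry replicate 17 the difference was 1.74 for Cma1, 1.71 for Tpsb2, 1.37 for Mcpt4 and 2.16 for Cpa3, with edgeR adjusted p from 0.321 to 0.444. The genes at an unadjusted p under 0.05 then fell from 4 to 2, as they did without HFD mCherry replicate 20 or SD mCherry replicate 3. Over all 18 alternatives the edgeR, DESeq2 or limma-voom adjusted p ran from 0.00521 to 0.321 for Cma1, from 0.00733 to 0.334 for Tpsb2, from 0.0474 to 0.444 for Mcpt4 and from 0.0373 to 0.405 for Cpa3. All 18 kept these 4 genes higher on the high fat diet.

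**Figure D3:**
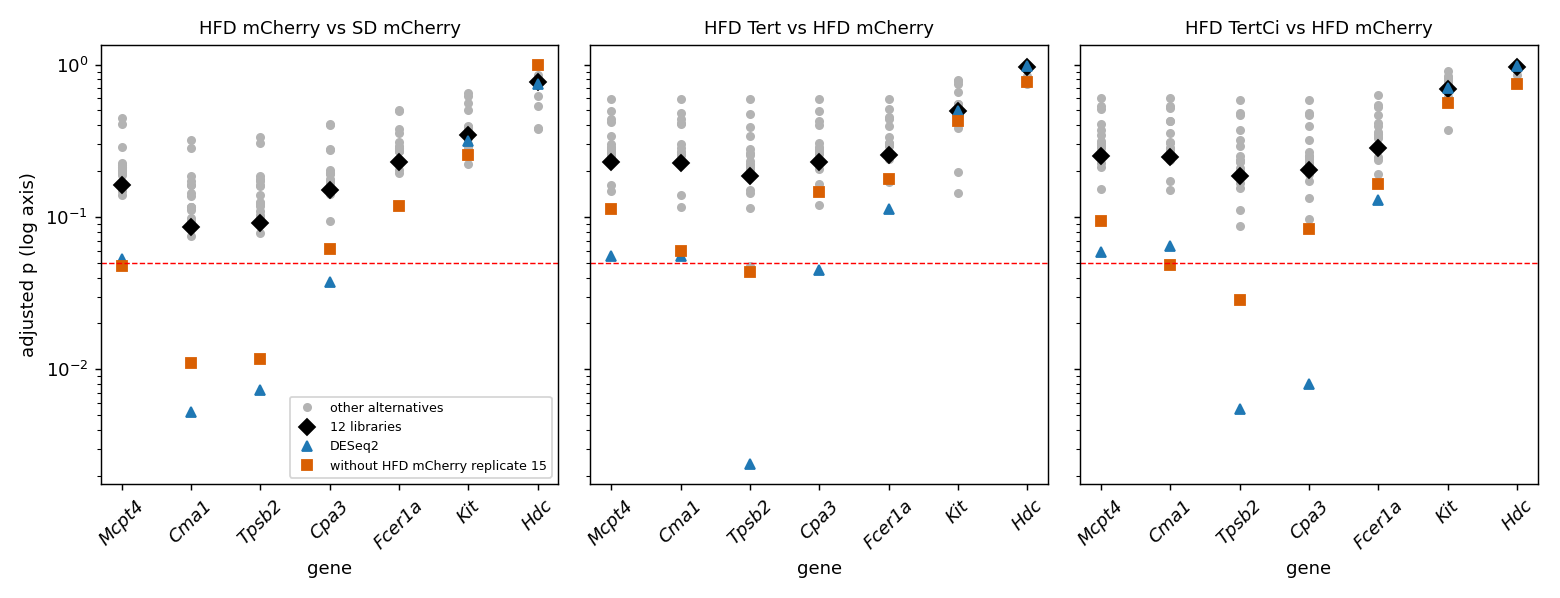
Adjusted p-value (log axis) of the 7 genes tested in the 3 comparisons that involve HFD mCherry; diamonds are edgeR on the 12 libraries, triangles DESeq2, squares edgeR without HFD mCherry replicate 15 and grey circles the other alternatives, with the threshold of 0.05 dashed. In the diet panel the diamonds of all 7 genes lie above the line, and Cma1 and Tpsb2 fall below it by DESeq2 and without replicate 15.

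The comparison of HFD Tert with HFD mCherry asked what Tert expression changed on the high fat diet. It shares the HFD mCherry libraries with the diet comparison and with that of TertCi, so the same 2 high libraries enter all 3. All 8 genes had a lower mean CPM with Tert, Hdc only slightly, and no difference passed the threshold. The log2 fold change was -2.64 for Tpsb2 (SE 0.639, edgeR adjusted p = 0.187), -2.65 for Cpa3 (SE 0.922, adjusted p = 0.230), -2.05 for Mcpt4 (SE 0.720, adjusted p = 0.231) and -1.82 for Cma1 (SE 0.617, adjusted p = 0.227). For Fcer1a it was -3.75 (SE 1.46, adjusted p = 0.255) and for Kit -0.67 (SE 0.483, adjusted p = 0.496). Hdc was at -0.06, with a 95% interval from -1.39 to 1.26, and at 0.06 with scaling by library size only. Without the filter on low counts Ms4a2 was at -1.54 (SE 1.30, adjusted p = 0.589).

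Of the 7 genes tested, edgeR called 0 with Tert, where 0.0% of all genes passed. Tpsb2, Cpa3, Mcpt4, Cma1 and Fcer1a were lower at an unadjusted p under 0.05, against 9.75% of all genes. The difference of Fcer1a was partly set by the filter on low counts, as stated above. The 3 HFD Tert libraries lay below all 3 HFD mCherry libraries for Cpa3, Tpsb2 and Fcer1a, 3 of the 8 genes, against 11.1% of all genes. For Fcer1a this came only from scaling equal counts. HFD mCherry replicate 15 and HFD Tert replicate 26 had 5 counts each (0.276 and 0.267 CPM). The median log2 fold change of the 7 was -2.05 and that of all genes -0.05. DESeq2 called Tpsb2 (adjusted p = 0.00238) and Cpa3 (adjusted p = 0.0446) as lower, against 5.07% of all genes called, and limma-voom called 0. Without HFD mCherry replicate 15, edgeR called Tpsb2 alone (-3.11, adjusted p = 0.0433), against 0.299% of all genes. Without replicate 17, Cma1 was at -1.28 and Mcpt4 at -1.56, and 2 genes were at an unadjusted p under 0.05 in place of 5. Over the 18 alternatives the adjusted p of Tpsb2 ran from 0.00238 to 0.597 and that of Cpa3 from 0.0446 to 0.597.

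HFD TertCi was likewise compared with HFD mCherry. Cpa3 had the largest difference among the proteases, at -3.39 (SE 0.955, edgeR adjusted p = 0.203), and it was -2.86 when HFD TertCi replicate 31 with its single count was left out. Tpsb2 was at -2.48 (SE 0.634, adjusted p = 0.186), Mcpt4 at -2.07 (SE 0.720, adjusted p = 0.251) and Cma1 at -1.81 (SE 0.617, adjusted p = 0.246). For Fcer1a the difference was -3.69 (SE 1.44, adjusted p = 0.284) and for Kit -0.44 (SE 0.482, adjusted p = 0.691). Hdc was at -0.08, with a 95% interval from -1.40 to 1.25, and at 0.06 with scaling by library size only. Ms4a2, without the filter on low counts, was at -1.53 (SE 1.30, adjusted p = 0.634).

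By edgeR 0 of the 7 passed with TertCi, against 0.012% of all genes (2 of 16713). At an unadjusted p under 0.05 the 4 proteases and Fcer1a, whose difference was partly set by the filter, were lower, against 8.92% of all genes. Cpa3, Tpsb2, Kit and Fcer1a, 4 of the 8 genes, had all 3 HFD TertCi libraries below all 3 HFD mCherry libraries, against 12% of all genes. For Fcer1a this again came only from scaling 5 counts each in HFD mCherry replicate 15 (0.276 CPM) and HFD TertCi replicate 30 (0.255 CPM). The median log2 fold change of the 7 was -2.07 and that of all genes -0.04. DESeq2 called Tpsb2 (adjusted p = 0.00549) and Cpa3 (adjusted p = 0.00800) as lower, against 4.09% of all genes, and limma-voom called 0 of the 7. Without replicate 15 of HFD mCherry, edgeR called Tpsb2 (-2.95, adjusted p = 0.0286) and Cma1 (-2.28, adjusted p = 0.0487) as lower, against 1.16% of all genes. Without replicate 17, Cma1 was at -1.27 and Mcpt4 at -1.58, and 2 genes in place of 5 were at an unadjusted p under 0.05, and 3 without HFD TertCi replicate 31. The adjusted p over the 18 alternatives ran from 0.00549 to 0.583 for Tpsb2, from 0.00800 to 0.583 for Cpa3 and from 0.0487 to 0.603 for Cma1.

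**Figure D4:**
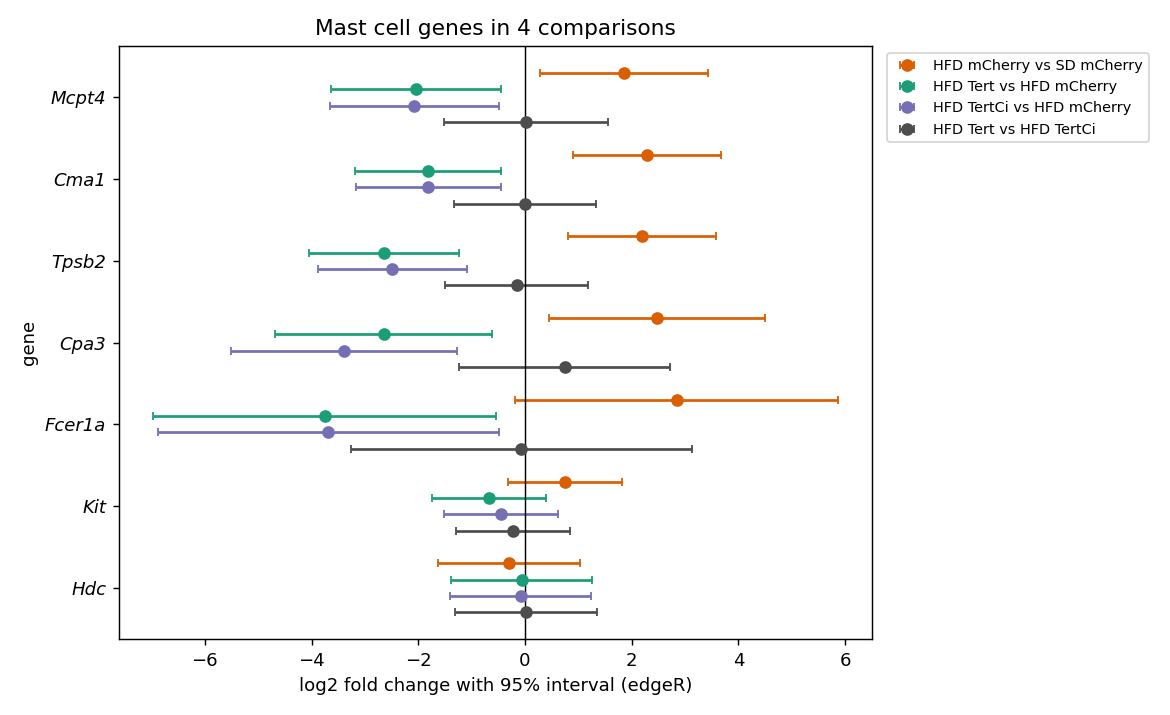
Log2 fold change with its 95% interval from edgeR for the 7 genes tested, coloured by comparison. The intervals of the 4 proteases lie above 0 for diet and below 0 for Tert and TertCi against HFD mCherry, before adjustment over all genes, and those of Tert against TertCi all include 0.

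HFD Tert and HFD TertCi did not differ detectably in any of the 8 genes, and their libraries overlapped for all 8. Of all genes, 2.55% had the 3 Tert libraries above the 3 TertCi libraries and 2.58% had them below. The largest difference among the proteases was 0.74 for Cpa3 (SE 0.896, edgeR adjusted p = 1), with a 95% interval from -1.24 to 2.72. For Tpsb2 it was -0.16 (95% interval from -1.49 to 1.18), for Cma1 -0.01 (from -1.33 to 1.32), for Mcpt4 0.03 (from -1.51 to 1.56), for Kit -0.23 (from -1.29 to 0.84) and for Hdc 0.02 (from -1.31 to 1.34). These intervals include changes of more than 2-fold either way in the 4 proteases and Hdc, so the data do not show that the active and the TertCi forms act alike. None of the 7 genes had an unadjusted p under 0.05, as did 1.36% of all genes. Neither edgeR, DESeq2 nor limma-voom called any of them, and of all genes DESeq2 called 0.0539%. The median difference of the 7 and that of all genes were both -0.01. An F-test over the 4 groups called 0 of the 7 as well, against 0.012% of all genes, with the smallest adjusted p at 0.124 for Tpsb2 and the largest at 0.938 for Hdc.

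Macrophage and adipose progenitor transcripts were, like the proteases, highest in HFD mCherry replicates 17 and 20, but the likeness did not hold within the knock-in groups for macrophages. Macrophage markers, summed over 10 genes, were at 537 to 851 CPM in SD mCherry, 1828 to 4730 in HFD mCherry, 425 to 1864 with Tert and 651 to 1094 with TertCi. Within HFD mCherry they were lowest in replicate 15, as the proteases were. In the diet comparison all 10 macrophage genes were higher, 9 at an unadjusted p under 0.05, and by edgeR 0 passed, while DESeq2 called 9 and limma-voom 0. By edgeR 8 were called without HFD mCherry replicate 15 and 7 with the covariate for epithelial transcripts described below. Leaving out replicate 17 or 20 instead gave 0 edgeR calls among all genes, here and in the Tert and TertCi comparisons. Of all genes 14.1% were higher at an unadjusted p under 0.05, and the called shares were 12.4% by DESeq2, 12.2% without replicate 15 and 7.91% with the covariate. All 10 were lower with Tert and with TertCi than in HFD mCherry, 9 and 10 at an unadjusted p under 0.05 (9.75% and 8.92% of all genes). There edgeR and limma-voom called 0, and DESeq2 called 8 and 7 (5.07% and 4.09% of all genes). By edgeR 0 and 1 were called without replicate 15 (0.299% and 1.16%), and 8 and 7 with the covariate (5.62% and 3.28%). The mast cell proteases together were at 11.3 to 42.3 CPM in SD mCherry, 34.6 to 209 in HFD mCherry, 18.9 to 33.7 with Tert and 19.8 to 34.7 with TertCi. HFD Tert replicate 27 departed from this parallel, with the most macrophage RNA of the knock-in libraries at 1864 CPM and the least protease RNA at 18.9 CPM. HFD TertCi replicate 31 did so too, with the most macrophage RNA (1094 CPM) and the least protease RNA (19.8 CPM) of its group. HFD mCherry replicate 15 exceeded every SD mCherry library in macrophage RNA (1828 CPM), while its protease RNA (34.6 CPM) lay inside the SD mCherry range. Adipose progenitor genes, summed over 6, were also lowest in replicate 15 within HFD mCherry, at 2459 CPM against 6537 and 5497 in replicates 17 and 20. They were at 2255 to 2967 CPM in SD mCherry, 2596 to 4742 with Tert and 2338 to 3923 with TertCi. Endothelial genes, also 6, had another order, at 685 to 1051 CPM in SD mCherry, 1497 to 2745 in HFD mCherry, 1814 to 4387 with Tert and 2062 to 4547 with TertCi. The part of these cells in the differences of the mast cell genes was not tested.

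Of the lists of other cells, edgeR called 1 gene in each of 2 comparisons. Pdgfra, a receptor that marks adipose progenitors, was lower with TertCi, at 61.6 ± 4.24 CPM against 220 ± 19.6 in HFD mCherry (SD, n = 3; log2 fold change -1.84, SE 0.220, adjusted p = 0.0426). It was called under 6 of 18 alternatives, with adjusted p from 2.94e-12 to 0.373. Cfd, the adipocyte gene for adipsin, was lower on the high fat diet, at 0.409 ± 0.0190 CPM against 15.03 ± 4.61 in SD mCherry (SD, n = 3; -5.18, SE 0.537, edgeR adjusted p = 0.0219). It was called under 11 of 18 alternatives, with adjusted p from 1.11e-15 to 0.218.

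**Figure D5:**
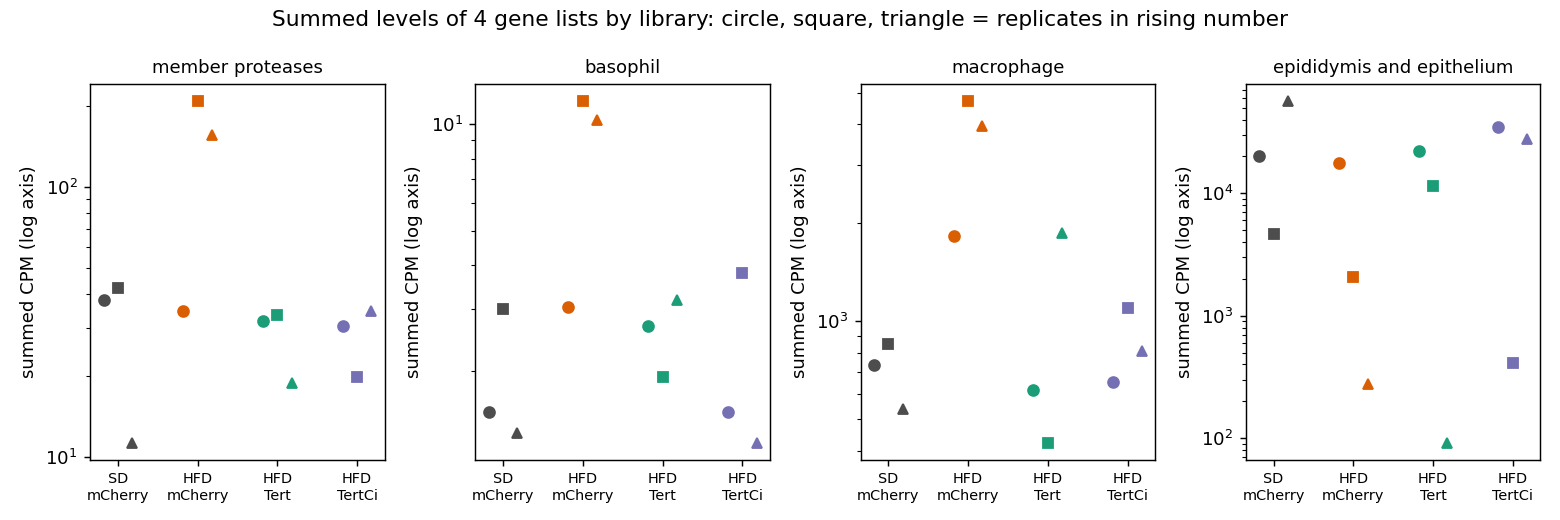
Summed level (TMM-scaled CPM, log axes) of the 4 mast cell proteases (panel "member proteases") and of the basophil, macrophage, and epididymis and epithelium lists in the 12 libraries, 3 per group. HFD mCherry replicates 17 (square) and 20 (triangle) are highest for proteases, basophil and macrophage genes, and HFD mCherry replicate 15 (circle) is the highest of its group for epithelial genes.

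Basophils share the IgE receptor and Hdc with mast cells but lack most of these proteases. Their 5 markers summed to 1.33 to 3.01 CPM in SD mCherry, 3.04 to 11.7 in HFD mCherry, 1.92 to 3.17 with Tert and 1.25 to 3.80 with TertCi. Of their defining markers, Mcpt8 was at 0 counts in 8 libraries and reached 2 at most, and Il4 was at 0 in 10 libraries. The largest part of the sum in HFD mCherry was Cd200r4, a receptor named after its values were seen, with 4 to 135 counts, at 0.923 ± 0.312 CPM in SD mCherry, 5.496 ± 3.08 in HFD mCherry, 1.35 ± 1.59 with Tert and 1.58 ± 1.42 with TertCi (SD, n = 3 each). Cd200r3, at most 39 counts, had a diet difference of -1.33 (SE 1.64, edgeR adjusted p = 0.626). Prss34, a protease of basophils that mast cells can also make, had at most 60 counts and a diet difference of 3.25 (SE 1.12, edgeR adjusted p = 0.132). Among melanocyte genes, which could accompany Kit, Tyrp1 was at 0 in all 12 libraries, Dct in 9, Tyr in 10 and Mlana in 5. Pmel had 69 to 221 counts and Sox10 8 to 97. Mlana, named after its values were seen, had at most 15 counts. It was at 0.0501 ± 0.0509 CPM in SD mCherry, 0.599 ± 0.519 in HFD mCherry, 0 with Tert and 0.141 ± 0.157 with TertCi (SD, n = 3 each). Sox10 went the other way, at 3.01 ± 2.34 CPM in SD mCherry and 0.942 ± 0.489 in HFD mCherry. Sox10 was at 3.20 ± 2.43 CPM with Tert and 2.78 ± 0.758 with TertCi. The diet log2 fold change was -1.67 for Sox10 (SE 0.835, edgeR adjusted p = 0.242) and 0.63 for Pmel (adjusted p = 0.346). The 6 genes together, with Pmel the largest part, stayed between 6.57 and 13.3 CPM over all groups. The summed 4 eosinophil genes ran from 1.58 to 3.13 CPM in SD mCherry, 3.70 to 9.97 in HFD mCherry, 2.35 to 5.35 with Tert and 3.77 to 4.89 with TertCi. For diet 3 of them were higher, Ccr3 most (mean 0.596 to 4.91 CPM), and Epx was lower (0.420 to 0 CPM). The neutrophil genes ran from 3.39 to 7.08, 11.7 to 20.9, 2.92 to 11.6 and 6.89 to 11.6 CPM in the same order. The largest part of their sum in HFD mCherry was Csf3r, at a mean of 12.1 CPM against 2.62 in SD mCherry. S100a8 was at 2.86 against 2.08 CPM.

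The epithelial transcripts had no single relation to the proteases. Within HFD mCherry, replicate 15 had the most epithelial and the least protease RNA, but replicate 17 exceeded replicate 20 in both. In SD mCherry, replicate 3 had the most epithelial (57039 CPM) and the least protease RNA (11.3 CPM). HFD Tert replicate 27 (91.9 and 18.9 CPM) and HFD TertCi replicate 31 (413 and 19.8 CPM) had the least of both in their groups. With the mean log2 CPM of the epididymis and epithelium list as a covariate, the diet difference was 1.81 for Cma1 (edgeR adjusted p = 0.0894), 1.79 for Tpsb2 (adjusted p = 0.110), 2.53 for Cpa3 (adjusted p = 0.152) and 1.65 for Mcpt4 (adjusted p = 0.220). All 4 were still higher on the high fat diet and none was called, against 7.91% of all genes. For Tert against mCherry the covariate fit called Tpsb2 (-2.41, adjusted p = 0.0478) and no other of the 7, against 5.62% of all genes. For TertCi it called 0 of the 7, against 3.28% of all genes, with Tpsb2 at -2.14 (adjusted p = 0.0868).

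The proteases present were those of connective tissue mast cells. Mcpt1 and Mcpt2, the chymases of mucosal mast cells, had 1 count in 1 library and 0 in all 12 respectively, and Ctsg had 12 counts at most. Tpsab1, a tryptase relative that RefSeq lists as a transcribed pseudogene in this assembly, followed Tpsb2. It was at 1.58, 0.776 and 0 CPM in SD mCherry, 0.552, 5.11 and 3.46 in HFD mCherry, 0.233, 0.480 and 0.0588 with Tert, and 1.02, 1.42 and 0.401 with TertCi. Tpsg1, a tryptase anchored in the membrane, went the other way, at 6.19 ± 5.55 CPM in SD mCherry and 0.871 ± 0.292 in HFD mCherry (SD, n = 3; log2 fold change -2.82, SE 0.836, edgeR adjusted p = 0.0968).

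A further 50 genes of mast cell biology, in 7 lists covering other proteases, granule matrix and amines, eicosanoids, IgE receptor signalling, growth factors and transcription factors, other receptors, and histamine receptors and breakdown, were read from the same fit. Of these, 42 were tested. In the diet comparison 33 were higher and 9 lower, 27 and 3 of them at an unadjusted p under 0.05. By edgeR 0 passed, with the smallest adjusted p at 0.0659, while DESeq2 called 18 higher and 2 lower and limma-voom 0. By edgeR 19 were called higher and 0 lower without HFD mCherry replicate 15, and 21 and 0 with the epithelial covariate. When replicate 17 or 20 was left out instead, edgeR called 0 of all genes for diet, Tert and TertCi. Of all genes 14.1% were higher and 10% lower at an unadjusted p under 0.05. The called shares of all genes were 12.4% by DESeq2, 12.2% without replicate 15 and 7.91% with the covariate. With Tert, 11 were higher and 31 lower than in HFD mCherry, 3 and 13 at an unadjusted p under 0.05, and edgeR called 0, DESeq2 1 higher and 7 lower, limma-voom 0. Without replicate 15 edgeR called 0, and with the covariate 2 higher and 8 lower. Of all genes 6.62% were higher and 9.75% lower with Tert at an unadjusted p under 0.05. The called shares were 5.07% by DESeq2, 0.299% without replicate 15 and 5.62% with the covariate. With TertCi, 12 were higher and 30 lower, 2 and 11 at an unadjusted p under 0.05, and edgeR called 0, DESeq2 1 higher and 6 lower, limma-voom 0. Without replicate 15 edgeR called 3 lower, and with the covariate 1 higher and 4 lower. Of all genes 5.76% were higher and 8.92% lower with TertCi at an unadjusted p under 0.05. The called shares were 4.09% by DESeq2, 1.16% without replicate 15 and 3.28% with the covariate.

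The genes of IgE receptor signalling were uniform in the diet comparison, as were the 4 mast cell proteases. All 12 were higher on the high fat diet, each at an unadjusted p under 0.05, against 14.1% of all genes. Both edgeR and limma-voom called 0, and DESeq2 called 8, against 12.4% of all genes. By edgeR 7 were called without HFD mCherry replicate 15 (12.2% of all genes) and 8 with the epithelial covariate (7.91%). Leaving out replicate 17 or 20 instead gave 0 edgeR calls among all genes. Syk, the kinase recruited to the receptor, had the largest difference, from 34.4 ± 9.69 CPM in SD mCherry to 255 ± 92.1 in HFD mCherry (SD, n = 3; log2 fold change 2.89, SE 0.613, edgeR adjusted p = 0.0659, and 0.0171 without replicate 15). Gab2, an adaptor, had the smallest, at 0.73 (SE 0.322, adjusted p = 0.199), and at 1.02 (adjusted p = 0.0375) without replicate 15. With Tert all 12 were lower than in HFD mCherry, 4 at an unadjusted p under 0.05 (9.75% of all genes). With TertCi 11 were lower, 4 at that level (8.92% of all genes). DESeq2 called 2 as lower with Tert (5.07% of all genes) and 1 with TertCi (4.09%). Without replicate 15 edgeR called 0 in both, against 0.299% and 1.16% of all genes. Fcer1g, the gamma chain of the receptor, was named here after its values were seen, and it was at 29.1 ± 5.19 CPM in SD mCherry, 123 ± 51.1 in HFD mCherry, 57.3 ± 41.5 with Tert and 62.4 ± 24.1 with TertCi. Fcer1g and Syk are also expressed by macrophages, and the share of each cell type in these values was not tested.

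Among the growth factor and transcription factor genes, Il1rl1, the receptor for interleukin 33 on mast cells and some lymphocytes, had the largest difference. By edgeR on the 12 libraries it passed in no comparison, and its mean was 5.44 ± 3.29 CPM in SD mCherry, 164 ± 105 in HFD mCherry, 22.5 ± 27.6 with Tert and 19.5 ± 17.1 with TertCi (SD, n = 3 each). The log2 fold change of Il1rl1 was 4.91 for diet (SE 1.15, edgeR adjusted p = 0.0727), -2.86 for Tert (SE 1.04, adjusted p = 0.240) and -3.07 for TertCi (SE 1.05, adjusted p = 0.248). Without HFD mCherry replicate 15 these were 5.36 (adjusted p = 0.0200), -3.32 (0.156) and -3.53 (0.126). When replicate 17 or 20 was left out instead, edgeR called 0 of all genes in each comparison. Gata2 had the opposite signs, at -1.41 for diet (SE 0.552, adjusted p = 0.166), 1.77 for Tert (SE 0.558, adjusted p = 0.217) and 1.62 for TertCi (SE 0.555, adjusted p = 0.247). Gata2 is also expressed by endothelial cells. The 2 ligands were named after their values were seen. Kitl, the ligand of Kit, was at 126 ± 23.7 CPM in SD mCherry and at 343 ± 109, 363 ± 198 and 379 ± 137 in the high fat diet groups mCherry, Tert and TertCi. The 3 high fat diet means of Kitl differed by less than their SDs. Il33 was at 46.7 ± 11.6 CPM in SD mCherry, 272 ± 173 in HFD mCherry, 141 ± 39.8 with Tert and 86.8 ± 39.0 with TertCi.

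Other receptors and mediators of mast cells gave further values of the same shape. Mrgprb1, a Mas-related G protein-coupled receptor, was at 1.43, 0.679 and 0.521 CPM in SD mCherry, 0.773, 5.71 and 5.32 in HFD mCherry, 0.467, 0.320 and 1.12 with Tert, and 0.408, 0.258 and 0.301 with TertCi. Its 2 high libraries were again replicates 17 and 20 of HFD mCherry. The log2 fold change of Mrgprb1 was 2.16 for diet (SE 0.784, edgeR adjusted p = 0.145), -2.62 for Tert (SE 0.803, adjusted p = 0.208) and -3.58 for TertCi (SE 0.845, adjusted p = 0.181). Without replicate 15, Mrgprb1 was at 2.64 (adjusted p = 0.0324), -3.11 (0.0739) and -4.06 (0.0322). Replicate 15 was the lowest of its group for Mrgprb1, so leaving it out widened these differences. Leaving out replicate 17 or 20 instead gave 0 edgeR calls among all genes in each comparison. Hpgds, the synthase of prostaglandin D2 in mast cells and some macrophages, was at 9.65 ± 3.72 CPM in SD mCherry, 53.2 ± 27.5 in HFD mCherry, 7.88 ± 5.91 with Tert and 6.77 ± 1.90 with TertCi. Its differences were 2.46 for diet (SE 0.620, adjusted p = 0.0757), -2.75 for Tert (SE 0.629, adjusted p = 0.187) and -2.97 for TertCi (SE 0.635, adjusted p = 0.155). Without replicate 15, Hpgds was at 2.84 (adjusted p = 0.0184), -3.13 (0.0536) and -3.35 (0.0337). Ptgs1, the cyclooxygenase upstream of it, had the opposite signs, at -1.59 for diet (SE 0.575, adjusted p = 0.144), 1.71 for Tert (SE 0.577, adjusted p = 0.227) and 1.77 for TertCi (SE 0.578, adjusted p = 0.237).

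Srgn encodes the granule proteoglycan serglycin, which other leukocytes and endothelial cells also make. It was at 169 ± 30.1 CPM in SD mCherry, 376 ± 122 in HFD mCherry, 341 ± 188 with Tert and 363 ± 132 with TertCi (SD, n = 3 each; diet log2 fold change 1.15, SE 0.411, edgeR adjusted p = 0.140). Ndst2, which sulphates heparin, was at 15.9 ± 4.70 CPM in SD mCherry, 34.3 ± 3.05 in HFD mCherry, 19.8 ± 1.14 with Tert and 19.6 ± 2.39 with TertCi. Its log2 fold change was -0.79 for Tert (SE 0.228, adjusted p = 0.198) and -0.81 for TertCi (SE 0.228, adjusted p = 0.203). On the side of histamine, the receptor Hrh1 was at 6.52 ± 3.57 CPM in SD mCherry, 20.1 ± 9.27 in HFD mCherry, 20.2 ± 11.7 with Tert and 18.7 ± 8.27 with TertCi (diet log2 fold change 1.63, SE 0.593, adjusted p = 0.146), while Hdc was lower in mean on the high fat diet. Of the 5 tested genes of histamine receptors and breakdown, Hrh1 alone was higher for diet and 4 were lower. Their median log2 fold change was -1.17. Aoc1 was the lowest of them, at -2.69 (SE 1.62, edgeR adjusted p = 0.319). The 3 high fat diet means of Srgn and of Hrh1 differed by less than their SDs.

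Among the 10 genes whose levels over the 12 libraries were most like the mean standardised log2 CPM of the 7 tested genes were Ttc17, Notch2, Epg5, Aff1, Fbxo42, Cd33, 6030419C18Rik and Cerkl. Pearson's r ran from 0.966 for Ttc17 to 0.930 for Cerkl. HFD mCherry replicates 17 and 20 were the 2 libraries farthest from the median of that mean. Without them r was 0.887 for Ttc17, 0.863 for Notch2 and 0.911 for Epg5. The points share their libraries and depth, and these values describe likeness only.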

How the data were processed

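RNA was measured in 12 libraries in 4 groups of 3. For each library the authors deposited read counts, not normalized, over 24422 features, made with Subread, SAMtools and featureCounts 1.6.4 on mm10, per the submitters' processing notes. Per the labels' protocols, poly-T selected RNA was primed with random hexamers. Annotation and strand setting were not given in the sources used here.

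Counts were used as deposited. The filterByExpr rule by group left 16713 genes, and libraries were scaled by TMM factors (0.854 to 1.15). A quasi-likelihood model with robust dispersions was fitted to all 12 libraries with edgeR 4.0.16 in R 4.3.3, with no covariate. Tests were 2-sided with Benjamini-Hochberg adjustment over all genes tested, and genes were called at an adjusted p under 0.05. The SE is the absolute log2 fold change divided by the square root of F. The pipeline was tested on simulated counts.

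The alternatives were DESeq2 1.42.0, limma-voom (limma 3.58.1), library size scaling, no filter on low counts, only the 6 libraries compared, an epithelial score as covariate, and leaving out each library. The text names all 8 members, genes of each other list called in any comparison, some of those with the highest or lowest log2 fold change of a list, 8 of the 10 genes most alike (the other 2 are not reported here), and Mcpt1, Mcpt2, Tpsab1, Cma2 and Tert. Exceptions are stated beside their values. The members, lists and rules were chosen with earlier results of these data known. Fold changes were read relative to all genes, whose median is given for each comparison.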

Additional observations from a re-analysis of the deposited data

How the results depend on the processing

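No paired analysis was possible because no replicate number occurs in more than 1 group. In the 3 comparisons with HFD mCherry, Mcpt4, Cma1, Tpsb2, Cpa3, Fcer1a and Kit kept their direction under every alternative that gave a value, and DESeq2 gave no adjusted p for Fcer1a in the diet comparison. In the order diet, Tert, TertCi and Tert against TertCi, edgeR called 8, 0, 2 and 0 genes. DESeq2 called 2069, 847, 684 and 9 genes, and 3, 2, 2 and 0 of the mast cell genes. With the epithelial score as covariate 1322, 940, 548 and 0 genes were called, and 0, 1, 0 and 0 of the mast cell genes. Library size scaling gave 6, 0, 1 and 0 genes, limma-voom 0, 0, 2 and 0, and the fit of only the 6 libraries compared 0 in each. Library size scaling moved the median log2 fold change of all genes for diet from -0.08 to -0.27. Leaving out 1 library at a time gave 0 to 2082 genes for diet, 0 to 51 for Tert and 0 to 198 for TertCi, and 0 to 3, 0 to 1 and 0 to 2 of the mast cell genes, with 0 to 2 of them in the F-test over the 4 groups. All the highest values came without HFD mCherry replicate 15, which alone among the 12 libraries changed a call of a mast cell gene. For diet, 686 genes were called without HFD Tert replicate 27 and 48 without SD mCherry replicate 3. The causes were not tested.

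Signs that turned were those of differences near 0. Hdc was at -0.25 for Tert against TertCi with the covariate, -0.00108 with library size scaling and -0.0224 by limma-voom. For Tert against HFD mCherry, Hdc was at 0.0552 with library size scaling. For TertCi against HFD mCherry, Hdc was at 0.0932 with the covariate, 0.0563 with library size scaling and 0.00793 in the fit of 6 libraries. Mcpt4 for Tert against TertCi was at -0.0340 with the covariate and -0.00286 with library size scaling. Leaving out 1 library at a time, Hdc ranged from -0.76 to 0.50 for diet, from -0.44 to 0.14 for Tert, from -0.39 to 0.11 for TertCi and from -0.36 to 0.25 for Tert against TertCi. For Tert against TertCi, Kit ranged from -0.95 to 0.12, Mcpt4 from -0.31 to 0.38, Cma1 from -0.13 to 0.11, Fcer1a from -0.78 to 0.49 and Tpsb2 from -0.30 to 0.0371. Depth limited Fcer1a and Ms4a2 most, with at most 10 counts outside HFD mCherry.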
